A study of Mus musculus with 12 samples.

Results

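The nuclear genes of the mitochondrial respiratory chain and ATP synthase were taken from the gene table by their names: every row starting with Nduf, Uqcr or Atp5, or with Cox4, Cox5, Cox6, Cox7 or Cox8, except pseudogene names ending in -ps. The rule found 88 of 23440 rows, and no name had to be left out as -ps. They comprised 36 subunits of complex I, 8 of complex III, 20 of complex IV and 15 of complex V (ATP synthase), or 79 subunits. Another 7 were complex I assembly factors (Ndufaf1 to Ndufaf7), and 2, Atp5s and Atp5sl, are not counted as subunits of the enzyme. Ndufa4 and its relative Ndufa4l2 were counted with complex IV, where the Ndufa4 protein resides. Macrophages were grown from the bone marrow of C57/BL6 mice for 7 days in medium with 30% L929-conditioned medium, and all cultures were primed overnight with interferon gamma (Ifn-γ). Control cultures received nothing further, and M1-activated cultures received lipopolysaccharide (LPS) for 8 h. WT macrophages carried floxed Bmal1 alleles without Cre (Bmal1 f/f), and M-BKO macrophages carried the same alleles with Lyz2-Cre, which deletes the clock gene Bmal1 in myeloid cells. Each of the 4 groups held 3 cell culture replicates. The number of mice behind them is not given in the sources, so that the p-values speak of culture-to-culture spread alone. The Cre was inserted in Lyz2 and named for M-BKO alone, so that loss of Bmal1 and loss of Lyz2 cannot be told apart.

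Complex I takes electrons from NADH and complex II from succinate. Both pass them through ubiquinone to complex III, which hands them to cytochrome c, and complex IV delivers them to oxygen. Complexes I, III and IV pump protons across the inner membrane, and complex V uses the return flow to make ATP. Complexes I, III, IV and V contain subunits from both the nuclear and the mitochondrial genome, which have to be made in balance. Macrophages stimulated with Ifn-γ and LPS are known for a shift from respiration towards glycolysis.

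Promoter sequence was available for 73 of the 88 genes by symbol (RefSeq, GRCm38.p6, 250 bases before to 50 bases after the annotated start, first entry of each gene). Of the 75 subunit genes tested below, 63 were matched. The windows of 4 genes are shown because they belong to the members with the most unlike responses: Ndufs4, the complex I subunit that rose after M1 activation, Ndufa9, a complex I subunit with one of the largest falls, Cox8a, the complex IV subunit with the highest M1 difference, and Atp5g3, the c-ring gene that moved least. They lie at chr13:114388045-114388344, chr6:126849095-126849394, chr19:7217567-7217866 and chr2:73911277-73911576, and were chosen after the values were seen. Capitals mark matches on either strand to the recognition letters of factors known to bind such promoters: GCGCANGCG for NRF1, CCGGAAG for ETS factors such as GABPA, AAGATGGCG for YY1, TCAAGGTCA for the estrogen-related receptors (ERR) and CACGTG, the E-box bound by Bmal1 with Clock.
Ndufs4: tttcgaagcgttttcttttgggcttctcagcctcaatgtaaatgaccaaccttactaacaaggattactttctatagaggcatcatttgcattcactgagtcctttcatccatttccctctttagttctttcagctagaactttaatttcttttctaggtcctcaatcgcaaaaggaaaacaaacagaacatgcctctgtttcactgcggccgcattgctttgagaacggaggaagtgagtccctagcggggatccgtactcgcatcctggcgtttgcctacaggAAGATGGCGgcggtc
Ndufa9: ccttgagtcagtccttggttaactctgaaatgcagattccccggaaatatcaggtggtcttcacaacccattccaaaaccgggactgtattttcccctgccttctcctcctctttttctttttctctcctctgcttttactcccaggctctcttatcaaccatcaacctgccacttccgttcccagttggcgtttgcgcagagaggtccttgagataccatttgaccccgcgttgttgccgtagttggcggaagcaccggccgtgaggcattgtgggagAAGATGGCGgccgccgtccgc
Cox8a: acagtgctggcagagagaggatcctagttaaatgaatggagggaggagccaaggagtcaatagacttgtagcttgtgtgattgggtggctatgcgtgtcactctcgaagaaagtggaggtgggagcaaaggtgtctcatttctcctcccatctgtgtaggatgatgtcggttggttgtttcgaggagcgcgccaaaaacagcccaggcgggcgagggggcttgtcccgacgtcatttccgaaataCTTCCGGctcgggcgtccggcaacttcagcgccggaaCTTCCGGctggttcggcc
Atp5g3: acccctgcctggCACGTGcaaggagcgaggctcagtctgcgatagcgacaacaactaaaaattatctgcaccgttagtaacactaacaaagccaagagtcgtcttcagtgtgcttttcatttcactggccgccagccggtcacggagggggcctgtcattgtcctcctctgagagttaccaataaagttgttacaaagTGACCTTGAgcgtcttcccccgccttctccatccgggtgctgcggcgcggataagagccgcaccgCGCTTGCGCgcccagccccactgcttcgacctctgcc
Ndufs4 and Ndufa9 carried the same YY1 letters at 35 and 29 bases after the start, although one rose and the other fell. Cox8a carried the ETS letters at 2 places, read on the opposite strand, and Atp5g3 carried the NRF1, ERR and E-box letters. The NRF1 letters were found in 17 of the 63 subunit promoters (27%), beside 14.9% of the promoters of 8187 tested genes and 6.47% of all 27025 promoters. The YY1 letters were in 6 subunit promoters (9.52%), beside 3.66% of those of tested genes and 1.49% of all. The ETS letters were in 13 subunit promoters (20.6%, beside 19.9% and 9.12%). The ERR letters were in 1, that of Atp5g3 (1.59%, beside 0.24% of tested genes and 0.41% of all). The E-box was in 6 (9.52%), beside 10.9% of tested genes and 7.24% of all promoters. Those 6 were Atp5f1, Atp5g1, Atp5g3, Atp5l, Ndufa7 and Ndufv1. A match of letters describes the window and does not show that a factor binds there.

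The values are TPM, transcripts per 1000000, scaled by the authors for gene length and library, so that levels of different genes can be compared. Every library sums to 1000000 TPM, and the read depth behind the values is unknown. The libraries had between 13315 and 13574 genes above 0. Macrophage markers were present in all of them (Csf1r 252 to 1599.6 TPM, Cd68 689 to 2013.9 TPM). Of 16 markers of other cell types in the table, 15 stayed at or below 1.12 TPM, and Camp ranged from 1.99 to 5.69 TPM. Of the markers of M1 activation, Il12b averaged 0.712 TPM in WT controls and 2402 TPM after M1, and Nos2 46.5 TPM and 3262 TPM. The Bmal1 gene (Arntl in the table) averaged 7.5 TPM in controls and 5.36 TPM after M1 in WT, and the M-BKO means were 2.24 TPM and 3.18 TPM. WT control replicate 3 stood apart from its group: the SD of its deviations from the group mean over all genes was 0.142 on the log2 scale, against 0.0777 to 0.108 in the other 11 libraries.

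Differences were tested on log2(TPM + 1) with limma, an empirical Bayes linear model, over the 10822 genes that reached 1 TPM in 3 or more libraries, and p-values were adjusted by Benjamini-Hochberg over all of these. Of the 88 genes, 84 passed this filter, 75 of them subunits. The other 4 were counted with complex IV. The tissue isoforms Cox7b2, Cox8b and Cox8c were at 0 TPM in every library, and Ndufa4l2 at no more than 0.103 TPM. An M1 response was called at an adjusted p under 0.05 and a fold over 1.5.

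In WT macrophages the subunit transcripts were abundant, and their summed level was lower after M1 activation. The sum over all subunits was 18938 to 19549 TPM in WT controls and 14309 to 14985 TPM after M1, a change from 1.93% to 1.47% of all transcripts. In M-BKO the sums were 19458 to 19618 TPM and 14319 to 14596 TPM, or 1.96% and 1.44%. The ranges of control and M1 cultures did not overlap in either genotype. The complexes did not move by the same factor. In WT the mean sum after M1 was 0.700 times the control for complex I, 0.825 times for complex III, 0.870 times for complex IV and 0.697 times for complex V. In M-BKO the same ratios were 0.669, 0.794, 0.820 and 0.697.

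**Figure D1:**
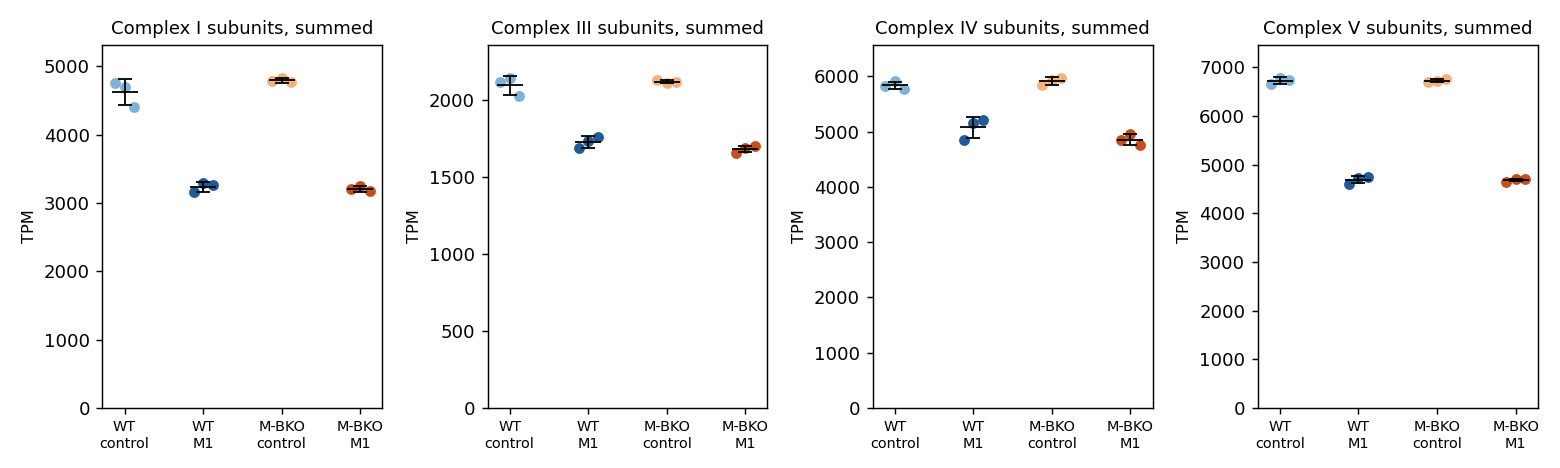
Summed TPM of the nuclear subunit genes of complexes I, III, IV and V in each of the 12 libraries (points), with the mean and SD of the 3 cultures per group (black bars). In all 4 panels every M1 culture of a genotype lies below every control culture, with the widest gap, relative to the control, in complexes V (0.697 times the control in both genotypes) and I.

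Of the 84 genes tested, 2 were called higher in WT and 37 lower. In M-BKO the counts were 1 and 42. Over all genes tested, 41.0% were called lower and 12.9% higher in WT, and 42.3% and 12.3% in M-BKO. The share of members called lower, 44.0% in WT and 50% in M-BKO, was therefore near that of all genes, while few were called higher (2.38% and 1.19%). The median log2 fold change of the members was -0.52 in WT and -0.58 in M-BKO, beside -0.43 and -0.45 over all genes tested. A gene with a changed share of the total has to be read against this general shift. When libraries were scaled instead so that the median gene did not change (median-ratio scaling), 7 members were called higher and 10 lower in WT, and 4 and 10 in M-BKO. In that scaling 22.8% of all genes were called higher and 21.3% lower in WT, and 22.4% and 22.1% in M-BKO, and the members' medians were -0.06 and -0.12. The fall of a typical subunit was thus of the size of that of a typical gene, and what stood out were the members that departed from it. The genes called lower were largely shared: 36 fell in both genotypes, 1 in WT alone (Atp5f1) and 6 in M-BKO alone (Ndufa11, Ndufs3, Ndufs5, Ndufs8, Ndufv1 and Atp5sl). None of these 7 genes was called in the test of the difference between the genotypes' responses.

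**Figure D2:**
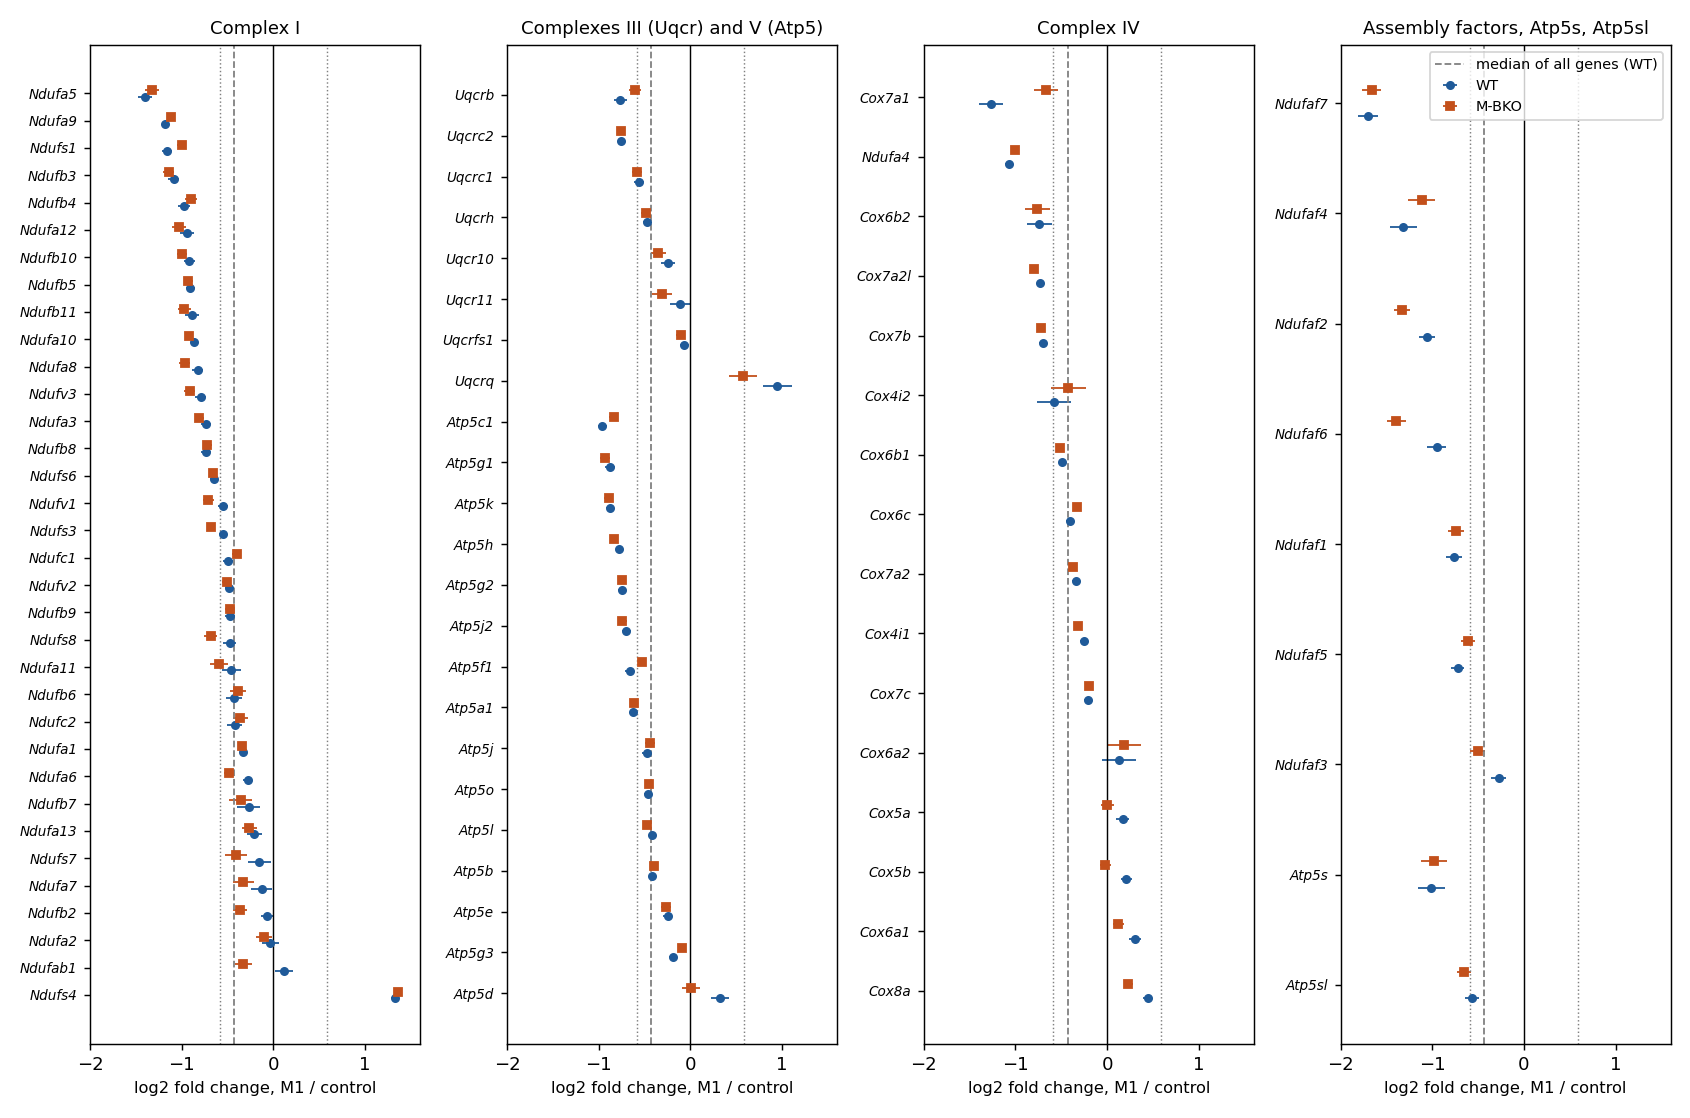
Log2 fold change of M1 over control in WT (circles) and M-BKO (squares) for 82 of the 84 genes tested, with standard errors from limma, ordered within each complex by the WT value. Ndufs5 is among the genes left out. Dotted lines mark the 1.5-fold threshold and the dashed line the median of all genes in WT (-0.43); Ndufs4 and Uqcrq are the members to the right of the upper threshold in WT.

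Complex I had 36 genes tested, of which 1 rose in each genotype, while 15 fell in WT and 20 in M-BKO. Its median was -0.49 in WT and -0.67 in M-BKO. The M-BKO count includes Ndufs5, whose values are uncertain. These counts stand beside 41.0% of all genes called lower in WT and 42.3% in M-BKO. None of the 36 was called in the test of the difference between the responses, where the median difference was -0.06. Under median-ratio scaling 1 was called higher and 4 lower in each genotype. In that scaling 22.8% of all genes were called higher and 21.3% lower in WT, and 22.4% and 22.1% in M-BKO. Accessory subunits of different parts of the enzyme, and the core subunit Ndufs1, were among those that fell most. Ndufa5, a subunit of the matrix arm, measured 115, 137 and 146 TPM in WT controls and 47.5, 50.5 and 50.2 TPM after M1 (log2 fold change -1.40, SE 0.08, adjusted p = 3.9e-10 by limma). In M-BKO it measured 123, 133 and 135 TPM against 49.9, 55.3 and 49.0 TPM. The control and M1 cultures were far apart in both genotypes, with means after M1 at 0.373 and 0.394 times the control. Ndufa9, which sits where the matrix arm joins the membrane arm, averaged 115 ± 2.49 TPM in WT controls and 50.1 ± 0.528 TPM after M1 (SD, n = 3; log2 fold change -1.18 in WT and -1.11 in M-BKO). Ndufb3, in the membrane arm, had values of -1.09 and -1.14, and Ndufa12, a late-joining subunit of the matrix arm, of -0.94 and -1.03. Under median-ratio scaling these 4 had log2 fold changes of -0.94, -0.72, -0.63 and -0.48 in WT. The first 3 were still called lower, and Ndufa12 was not.

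The core subunits, which carry the flavin, the iron-sulfur clusters and the quinone site, did not move together. Ndufs1, the large iron-sulfur subunit near the NADH site, fell most, from 67.0, 71.1 and 78.5 TPM to 31.7, 31.8 and 31.5 TPM in WT (log2 fold change -1.16, SE 0.05, adjusted p = 6.4e-11 by limma) and by a log2 value of -1.001 in M-BKO. It was the only core subunit called in WT. Its neighbours in the NADH-oxidizing module, Ndufv1 (the flavin subunit) and Ndufv2, had values of -0.55 and -0.48 in WT. In the ubiquinone-reducing module the values were -0.55 for Ndufs3, -0.48 for Ndufs8 and -0.15 for Ndufs7. In M-BKO these were -0.68, -0.68 and -0.41, and Ndufs1, Ndufs3, Ndufs8 and Ndufv1 were called. Under median-ratio scaling 1 core subunit was called lower in WT and none in M-BKO, where Ndufs1 had a value of -0.52. Of all genes, 21.3% in WT and 22.1% in M-BKO were called lower in that scaling. Ndufs7 measured 100.8, 86.5 and 62.5 TPM in the 3 WT controls, so that its WT difference depended on single libraries. It was -0.34 without WT control replicate 3 and 0.00038 without WT control replicate 1.

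Ndufs4 was the exception within complex I. It is an accessory subunit that joins the NADH-oxidizing end late in assembly, and its loss in humans causes Leigh syndrome. It measured 71.0, 72.1 and 76.6 TPM in WT controls and 183, 182 and 192 TPM after M1. In M-BKO it measured 69.3, 69.5 and 67.7 TPM, and 174, 177 and 186 TPM after M1. All M1 cultures lay far above all control cultures in both genotypes. The log2 fold change was 1.33 in WT and 1.36 in M-BKO (SE 0.04 in both, adjusted p = 1.0e-12 and 7.8e-13 by limma), and the responses did not differ detectably between genotypes (difference 0.03, SE 0.06, adjusted p = 0.82). Ndufs4 rose under each alternative setting tried, with log2 fold changes of 1.79 and 1.85 under median-ratio scaling. The gene lies at chr13:114287795-114388094 on the minus strand (mm10), and no other row of the table overlaps it. Without Ndufs4, the summed complex I level after M1 was 0.671 times the control in WT, against 0.700 with it.

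Some complex I genes lay close to their control level in WT. Ndufa2 measured 143 to 201 TPM in WT controls and 162 to 178 TPM after M1 (log2 fold change -0.03), and Ndufb2 had a value of -0.06 in WT and -0.37 in M-BKO. The row for Ndufs5, a subunit of the intermembrane side, held 0 to 11.5 TPM. Its span coincides over 5452 of 5477 bases with a row named BC002163_1 on the same strand, which averaged 174 TPM in WT controls and 103 TPM after M1. Reads of the 2 rows cannot be told apart here, and the Ndufs5 values, including its call in M-BKO (log2 fold change -1.93, SE 0.80), are uncertain.

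Of all genes, 41.0% were called lower in WT and 42.3% in M-BKO, and 12.9% and 12.3% higher. Of the 8 complex III genes named Uqcr, 2 fell in each genotype and 1 rose in WT. Those that fell were Uqcrb, a ubiquinone-binding-protein subunit (log2 fold change -0.76 in WT, -0.60 in M-BKO, short of the fold threshold there without M-BKO control replicate 3 or M1 replicate 3), and Uqcrc2, one of the large core proteins. Uqcrc2 measured 156, 162 and 172 TPM in WT controls and 95.25, 96.8 and 97.1 TPM after M1 (-0.75, SE 0.04, adjusted p = 1.9e-10 by limma). Its partner Uqcrc1 had values of -0.56 and -0.58, just short of the fold threshold. The Rieske iron-sulfur protein Uqcrfs1, which passes electrons towards cytochrome c1, kept nearly its control level, with 131, 137 and 151 TPM in WT controls and 128, 131 and 142 TPM after M1 (-0.06, SE 0.05). Uqcrfs1 was thus unlike the 2 core proteins of the same complex, and it was above 0 under median-ratio scaling (0.40 in WT and 0.38 in M-BKO).

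Uqcrq, a small subunit that contacts cytochrome b, rose. It measured 230, 183 and 119 TPM in WT controls and 313, 344 and 342 TPM after M1 (log2 fold change 0.95, SE 0.16, adjusted p = 5.2e-05 by limma). In M-BKO it measured 199, 200.3 and 191 TPM, and 284, 297 and 302 TPM after M1 (0.58, SE 0.16, adjusted p = 0.0032), which was just under the fold threshold and past it without M-BKO control replicate 1 or 2 or M-BKO M1 replicate 1 (up to 0.60). No control culture reached the level of any M1 culture. The WT controls were widely spread, and without WT control replicate 3 the WT value was 0.69. That library thus widened the gap to the M-BKO value of 0.58, and the WT value stayed the higher one without it. The difference between the responses was not called (-0.37, SE 0.22, adjusted p = 0.43). Without Uqcrq, the complex III sum after M1 was 0.727 times the control in WT and 0.722 times in M-BKO.

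In WT, complex IV had more genes above 0 than the other complexes: 5 of 16, beside 3 of 36 in complex I and 1 each in complexes III and V. Of the 16 genes tested, 5 fell in WT and 5 in M-BKO, and none rose past 1.5-fold. Over all genes, 41.0% were called lower in WT and 42.3% in M-BKO. Both counts of complex IV genes that fell include Cox6b2, which passed the filter through control libraries alone. Under median-ratio scaling 2 of the 16 were called lower in WT and 1 in M-BKO. In that scaling 21.3% and 22.1% of all genes were called lower, and 22.8% and 22.4% higher. In WT, 4 more were higher at an adjusted p under 0.05 with a smaller fold: Cox8a (log2 fold change 0.44), Cox6a1 (0.31), Cox5b (0.21) and Cox5a (0.17). Cox5a and Cox5b encode the subunits on the matrix side, and Cox6a1 and Cox8a small membrane subunits of the common tissue form. Cox8a measured 517, 540 and 551 TPM in WT controls and 680, 728 and 780 TPM after M1, and in M-BKO 526, 526 and 549 TPM against 642, 649 and 591 TPM. The M1 cultures lay above the controls in both genotypes. In M-BKO the values of these 4 genes were 0.23, 0.12, -0.02 and 0.00. Under median-ratio scaling all 4 were called higher in WT (0.91, 0.77, 0.67 and 0.64), and Cox8a and Cox6a1 in M-BKO (0.72 and 0.61). Without these 4 genes, left out because of their WT values, the complex IV sum after M1 was 0.717 times the control in WT and 0.712 times in M-BKO.

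The complex IV genes that fell in WT were Cox7a1, Ndufa4, Cox6b2, Cox7a2l and Cox7b. Cox6b2 reached 1 TPM in control libraries alone and at most 0.516 TPM after M1, so the filter favoured its call. Ndufa4, a subunit at the edge of the complex, measured 413, 421 and 429 TPM in WT controls and 189, 201 and 211 TPM after M1 (log2 fold change -1.07, SE 0.04, adjusted p = 1.0e-11 by limma), and it had a value of -1.01 in M-BKO. AA467197, the mouse counterpart of the human gene for a protein that can take the place of NDUFA4 in complex IV, moved the other way. It measured 135, 134 and 170 TPM in WT controls and 1308, 1175 and 1187 TPM after M1 (log2 fold change 3.06, SE 0.07, adjusted p = 8.2e-14). In M-BKO it measured 166, 155 and 161 TPM against 1400, 1379 and 1310 TPM. The ratio of AA467197 to Ndufa4 was 0.318 to 0.396 in WT controls and 5.64 to 6.92 after M1, and 0.354 to 0.392 and 6.32 to 6.51 in M-BKO. After M1 the AA467197 transcript was thus the more abundant of the 2 in each of the 6 cultures, and in controls the less abundant. Cox7a2l, known for joining complexes III and IV in supercomplexes, had values of -0.73 and -0.80, and Cox7b of -0.70 and -0.72.

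Where a position of complex IV can be filled by a common or a tissue form, the common form was far more abundant in these cells. Cox4i1 averaged 831 TPM in WT controls and Cox4i2, the lung and hypoxia form, 1.11 TPM. Cox6a1 averaged 475 TPM and the muscle form Cox6a2 2.40 TPM, Cox6b1 843 TPM and the testis form Cox6b2 1.23 TPM, and Cox7a2 337 TPM and the muscle form Cox7a1 12.9 TPM. Of the common forms, Cox6b1 (log2 fold change -0.49 in WT), Cox7a2 (-0.34) and Cox4i1 (-0.25) were lower after M1 at an adjusted p under 0.05, with folds under 1.5. Cox4i1 and Cox7a2 were above 0 under median-ratio scaling (0.21 and 0.13 in WT). Cox7a1 measured 12.55, 13.3 and 12.8 TPM in WT controls and 4.26, 4.01 and 6.24 TPM after M1. It measured 10.9, 9.82 and 10.3 TPM in M-BKO controls and 5.72, 5.29 and 7.55 TPM after M1. The log2 fold change was -1.27 in WT and -0.67 in M-BKO, the widest difference between the genotypes among the 83 genes other than Ndufs5, but it was not called (0.60, SE 0.18, adjusted p = 0.14).

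**Figure D3:**
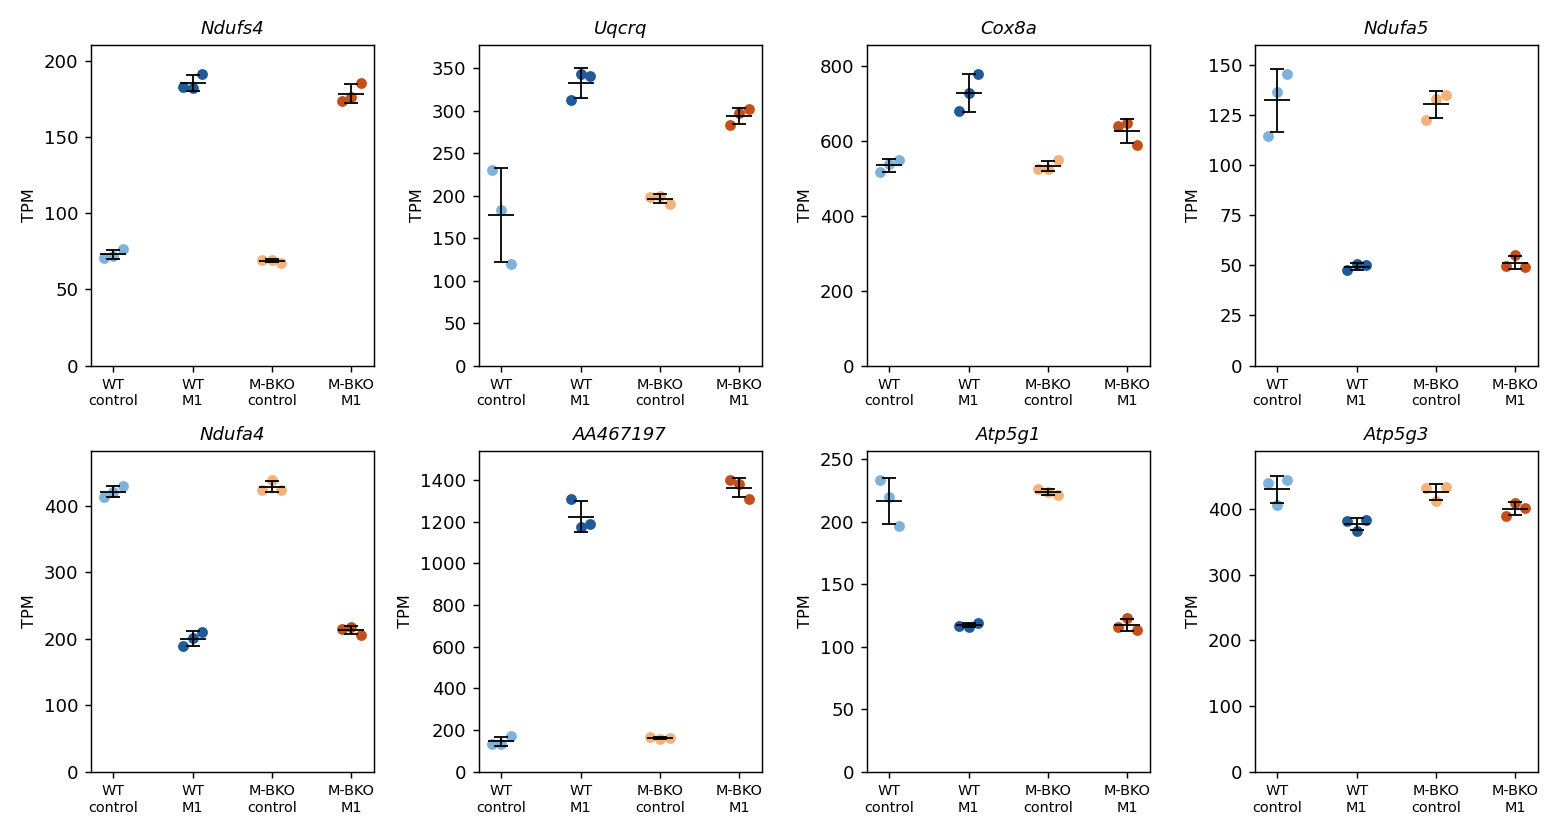
TPM of 8 genes in each library (points), with the mean and SD of 3 cultures per group (black bars) and axes starting at 0. Ndufs4 and Uqcrq are higher after M1, Ndufa5, Ndufa4 and Atp5g1 lower, Cox8a is higher with a smaller gap in M-BKO, AA467197 passes Ndufa4, and Atp5g3 changes least of the c-ring genes (-0.19 in WT and -0.09 in M-BKO on the log2 scale).

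Complex V had 15 genes tested. In WT 8 fell and none rose, and in M-BKO 7 fell and none rose. These counts stand beside 41.0% of all genes called lower in WT and 42.3% in M-BKO. The median of the 15 was -0.62 in WT, the lowest of the 4 complexes, and -0.52 in M-BKO, where that of complex I was lower. The catalytic head is built from several copies each of the alpha and beta subunits around a central stalk. Atp5a1 (alpha) averaged 678 ± 9.23 TPM in WT controls and 441 ± 2.63 TPM after M1 (log2 fold change -0.62), and Atp5b (beta), the most abundant member, averaged 1163 ± 20.5 TPM and 872 ± 27.5 TPM (-0.42, under the fold threshold). In the central stalk, Atp5c1 (gamma) fell from 239, 241 and 268 TPM to 133, 122 and 129 TPM in WT (-0.96, SE 0.05, adjusted p = 1.8e-10 by limma) and had a value of -0.83 in M-BKO. Atp5d (delta), in the same stalk, measured 195, 180 and 140 TPM in WT controls and 199.9, 217 and 223 TPM after M1 (0.32, SE 0.09, adjusted p = 0.0054) and had a value of 0.01 in M-BKO. Without WT control replicate 3 the WT value was 0.18. Atp5e (epsilon) had values of -0.25 and -0.26, so that the 3 subunits of this stalk had 3 different responses in WT. In the outer stalk and the membrane part, Atp5k (-0.87 in WT), Atp5h (-0.77), Atp5j2 (-0.70) and Atp5f1 (-0.66) fell, and Atp5o, Atp5j and Atp5l had values of -0.46, -0.48 and -0.42. Under median-ratio scaling none of the 15 was called lower in either genotype, and Atp5d was called higher in WT (0.79). Of all genes, 21.3% in WT and 22.1% in M-BKO were called lower in that scaling.

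The c-ring, which turns with the proton flow, is built from a single mature protein that 3 genes encode. Atp5g1 measured 233, 220 and 197 TPM in WT controls and 116, 116 and 119 TPM after M1 (log2 fold change -0.88 in WT, -0.92 in M-BKO). Atp5g2 had values of -0.74 in both genotypes, and Atp5g3 of -0.19 and -0.09. Atp5g3 was lower in WT too, but by less than the other two. Atp5g3 made up 38.4% to 42.9% of their summed TPM in WT controls and 50.1% to 51.6% after M1, and 38.7% to 40.9% and 51.1% to 52.7% in M-BKO. The control and M1 ranges of this share did not overlap. The share and the AA467197 ratio were computed after the single values had been seen and were not tested.

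The assembly factors averaged from 4.78 TPM (Ndufaf7) to 23.3 TPM (Ndufaf3) in WT controls. Of the 7, 6 fell in each genotype, beside 41.0% of all genes called lower in WT and 42.3% in M-BKO. The median of the 7 was -0.95 in WT and -1.12 in M-BKO. Ndufaf7, a methyltransferase that acts in complex I assembly, measured 4.15, 5.47 and 4.72 TPM in WT controls and 0.812, 0.850 and 0.646 TPM after M1 (log2 fold change -1.70, SE 0.11). Ndufaf4 had values of -1.31 and -1.12, Ndufaf2, which binds a late assembly intermediate, of -1.06 and -1.33, and Ndufaf6 of -0.95 and -1.39. At such levels the added 1 in log2(TPM + 1) makes these values smaller in size than the ratio of the means. Ndufaf7 passed the 1 TPM filter through its control libraries, where it was higher, so its call is not independent of the filter. Ndufaf2, Ndufaf4 and Ndufaf7 were called lower in WT under median-ratio scaling too, and Ndufaf6 as well in M-BKO. In that scaling 21.3% of all genes were called lower in WT and 22.1% in M-BKO. Atp5s fell in both genotypes (-1.01 and -0.98).

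The other genes of the pathway were taken from fixed lists. All 4 subunits of complex II fell in both genotypes, for example Sdha, the flavin subunit (log2 fold change -0.82 in WT, -0.74 in M-BKO), and Sdhd (-0.79 and -0.80). Their medians were -0.75 and -0.74. Under median-ratio scaling none of the 4 was called in either genotype (medians -0.28 and -0.25). Cyc1, the cytochrome c1 of complex III, fell (-0.79 and -0.80, not called under median-ratio scaling), while Cycs, the mobile cytochrome c, had values of -0.05 and 0.15. Of 8 further complex I assembly factors tested, 6 fell in each genotype and none rose, with Tmem126b (-1.59 and -1.66), Nubpl (-1.40 and -1.75), Tmem186 (-1.17 and -1.05) and Acad9 (-0.83 and -0.99) among them, and 4 were called lower in each genotype under median-ratio scaling. Of 2 complex III assembly factors tested, Bcs1l, which inserts the Rieske protein, fell (-1.80 and -1.58), and Ttc19 had values of 0.34 and 0.48. Of 5 complex V partners, 2 fell in each genotype: Atpaf1, which guides assembly of the head (-1.15 and -1.12), and Atpif1, the inhibitor of ATP hydrolysis (-0.68 and -0.83), with 1 called lower in each under median-ratio scaling. These counts stand beside the 41.0% and 42.3% of all genes called lower, and those under median-ratio scaling beside 21.3% and 22.1%. The 13 subunits encoded by mitochondrial DNA were not analysed here.

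The complex IV assembly factors moved in both directions. Of 21 tested, 3 rose in each genotype, while 7 fell in WT and 8 in M-BKO, beside the 12.9% of all genes called higher and 41.0% lower in WT, and 12.3% and 42.3% in M-BKO. Under median-ratio scaling 5 were called higher and 1 lower in each genotype. In that scaling 22.8% of all genes were called higher and 21.3% lower in WT, and 22.4% and 22.1% in M-BKO. Beside AA467197, the risers were Cox17 and Sco1, which act in turn to bring copper to complex IV. Cox17 measured 135, 121 and 88.1 TPM in WT controls and 376, 418 and 378 TPM after M1 (log2 fold change 1.78, SE 0.12, adjusted p = 3.0e-09 by limma), and its value in M-BKO was 1.65. Sco1 averaged 17.0 TPM in WT controls and 45.1 TPM after M1 (1.36), and went from 14.1 to 41.9 TPM in M-BKO (1.51). Every M1 culture lay above every control culture for both genes. Higd2a (-1.04 and -1.11), Cox10, which makes the heme a precursor (-0.90 and -0.92), and Coa3 (-0.72 and -0.77) were among those that fell.

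The comparison of M-BKO with WT asks whether loss of Bmal1 changed the respiratory chain transcripts, and few of them differed. Without LPS, none of the 84 genes was called at an adjusted p under 0.05 by limma, where 4.56% of all genes were called higher and 1.12% lower in M-BKO. At an unadjusted p under 0.05, 4 members were higher and 1 lower in M-BKO, beside 18.0% and 2.99% of all genes. Apart from Ndufs5, the differences lay between -0.29 (Cox7a1) and 0.20 (Ndufs7), 81 of the 83 within 0.2 of 0 on the log2 scale, with a median SE of 0.06. The summed level in M-BKO was 1.04 times that in WT for complex I, 1.01 times for complexes III and IV, and 1.0001 times for complex V. These ratios rest on totals that include Lyz2, at 33007 TPM in WT controls and 54.9 TPM in M-BKO controls. With Lyz2 left out of the total, the members' median difference without LPS was -0.02, against 0.03 with it. In that setting no member was called, beside 1.83% of all genes called higher and 1.39% lower.

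After M1 activation 1 member was called higher and 3 lower in M-BKO, beside 5.87% and 2.45% of all genes. Cox8a was lower, with 680, 728 and 780 TPM in WT cultures against 642, 649 and 591 TPM in M-BKO cultures (log2 fold change -0.22, SE 0.05, adjusted p = 0.019 by limma). Ndufab1, which is also the acyl carrier protein of mitochondrial fatty acid synthesis, measured 44.3, 45.2 and 51.8 TPM in WT cultures against 42.0, 32.9 and 36.8 TPM in M-BKO (-0.34, SE 0.09, adjusted p = 0.044). Ndufaf6 measured 3.46, 2.90 and 3.21 TPM against 2.19, 2.36 and 2.09 TPM (-0.38, SE 0.11, adjusted p = 0.040). Ndufc1, a small membrane-arm subunit, was higher, with 99.15, 96.25 and 87.2 TPM against 112, 109 and 104 TPM (0.20, SE 0.05, adjusted p = 0.027). The groups did not overlap for these 4 genes, but that was also so for members not called, such as Ndufs1, Ndufs3 and Cox7c. No member was called without LPS. Under median-ratio scaling 4 members were lower and none higher, beside 4.41% and 3.96% of all genes, and Ndufc1 was no longer called (adjusted p = 0.057). These calls lay near the threshold and were lost when certain single libraries were left out, while the sign of each difference held. With 1 library left out, Cox8a ranged from -0.27 to -0.17, Ndufab1 from -0.42 to -0.25 and Ndufaf6 from -0.43 to -0.34. Ndufc1 ranged from 0.15 to 0.24. A group with fewer cultures also has less power. Cox8a was lost without WT M1 replicate 2 or 3 or M-BKO M1 replicate 3 (adjusted p of 0.059, 0.092 and 0.084), and Ndufc1 without WT M1 replicate 2 or 3 or M-BKO M1 replicate 1 or 2 (0.055 to 0.12). Ndufab1 was lost without WT M1 replicate 2 or 3, M-BKO control replicate 1 or 2, or M-BKO M1 replicate 2 or 3 (0.051 to 0.18), and Ndufaf6 without any of the 6 M1 libraries (0.058 to 0.12). Leaving out 1 library gave from none to 3 members called higher and from none to 8 lower, the upper values without WT control replicate 3. Without that library 1266 of all 10822 genes were called higher and 527 lower, beside 635 and 265 with all libraries. Control libraries are in neither group compared, so leaving them out changed the pooled spread and not the fold changes.

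Genes of complexes III to V lay on both sides of 0 in M-BKO against WT after M1 without being called. Cox5a, Cox5b and Cox6a1 had differences of -0.20, -0.19 and -0.08 after M1 (adjusted p of 0.088, 0.058 and 0.48 by limma), and Uqcrq and Atp5d of -0.18 and -0.17 (0.52 and 0.27). Cox7a1, Uqcrb and Cox6c lay above 0, with 0.31, 0.16 and 0.09 (0.16, 0.16 and 0.17). At an unadjusted p under 0.05, complex IV had 3 genes higher and 3 lower of 16 tested, and complex I had 2 and 4 of 36. Complex III had 1 higher and none lower of 8, and complex V had none of 15. Of all genes tested, 17.2% were higher and 7.58% lower at that threshold. The summed complex IV level after M1 was 0.956 times that of WT in M-BKO, and 1.01 times without Cox5a, Cox5b, Cox6a1 and Cox8a. These 4 genes were left out for their high WT values after M1. A higher ratio without them is built into that choice and does not locate a genotype difference. Complexes I, III and V had ratios of 0.991, 0.973 and 0.999. Among the other lists, Usmg5, a small protein of the ATP synthase membrane part, was lower in M-BKO after M1 (-0.32, adjusted p = 0.043), with 52.1, 57.7 and 53.2 TPM in WT against 42.4, 48.0 and 40.0 TPM in M-BKO, and Sco1 was lower without LPS (-0.26, adjusted p = 0.021).

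The difference between the 2 genotypes' M1 responses was called for none of the 84 genes by limma, where 0.536% of all genes were called higher and 0.841% lower. At an unadjusted p under 0.05, 1 was higher and 9 were lower, beside 4.78% and 10.6% of all genes. The smallest p-value belonged to Ndufab1, whose log2 fold change was 0.12 in WT and -0.33 in M-BKO (difference -0.44, SE 0.13, adjusted p = 0.13). A value that misses the threshold does not show that the responses were equal: with a median SE of 0.08, small differences were not detectable in 3 cultures per group. Lyz2 itself took 33007 TPM in WT controls and 14993 TPM after M1, against 54.9 and 64.5 TPM in M-BKO, and the total of each library includes it. With Lyz2 left out of the total, no member was called higher and 4 lower in M-BKO after M1, beside 4.17% and 2.96% of all genes. The members' median difference after M1 was then -0.03, against -0.01 with Lyz2 in the total.

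**Figure D4:**
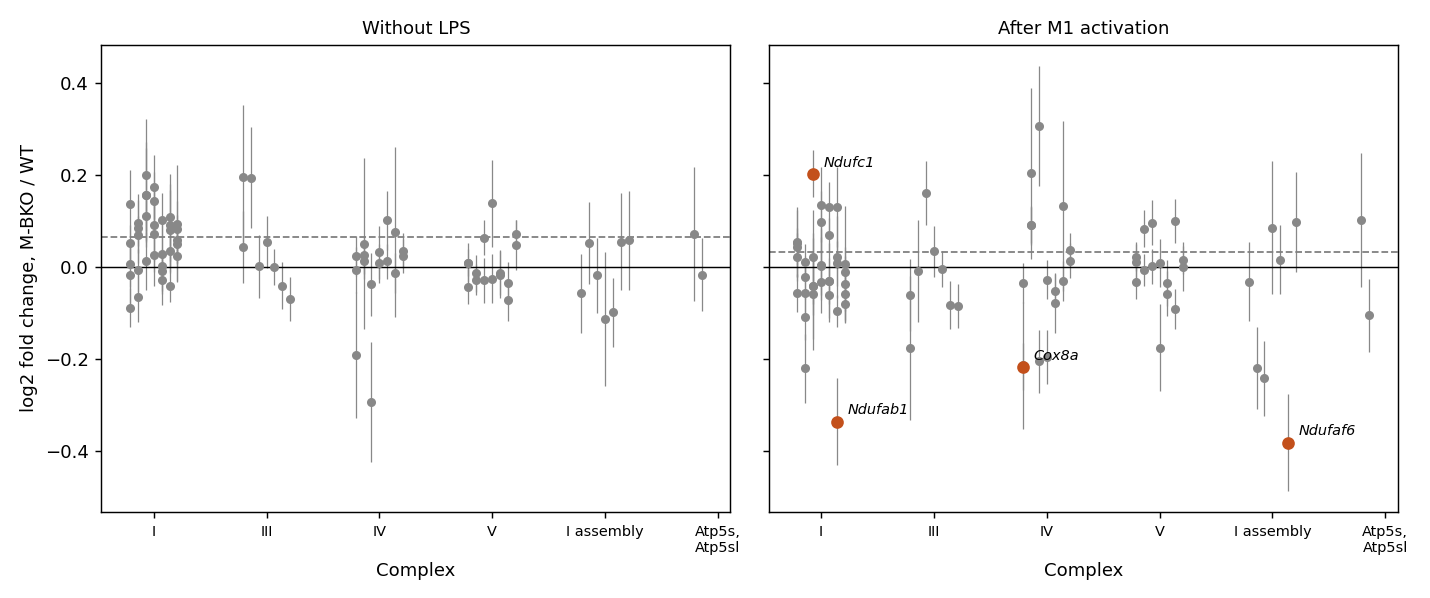
Log2 fold change of M-BKO over WT without LPS and after M1 for 83 genes (Ndufs5 left out), by complex, with standard errors from limma. Dashed lines mark the median of all genes (0.07 and 0.03); the 4 genes in orange passed an adjusted p of 0.05 after M1, and none did without LPS.

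The share of G and C bases in a transcript moved with the deviations of single libraries. Over the 74 subunit genes tested other than Ndufs5, Pearson's r between GC share (longest coding transcript, GENCODE M21) and the deviation of WT control replicate 3 from its group mean was -0.53, and over 9985 of all genes tested it was -0.73. Genes with GC-rich transcripts, such as Atp5d (59.3%), were low in that library. The M1 response in WT had an r of 0.09 with GC share over the subunits and 0.12 over all genes, and M-BKO against WT after M1 had values of -0.13 and -0.35. These are descriptions across genes, which are not independent, and the part of GC share in the results was not tested.

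**Figure D5:**
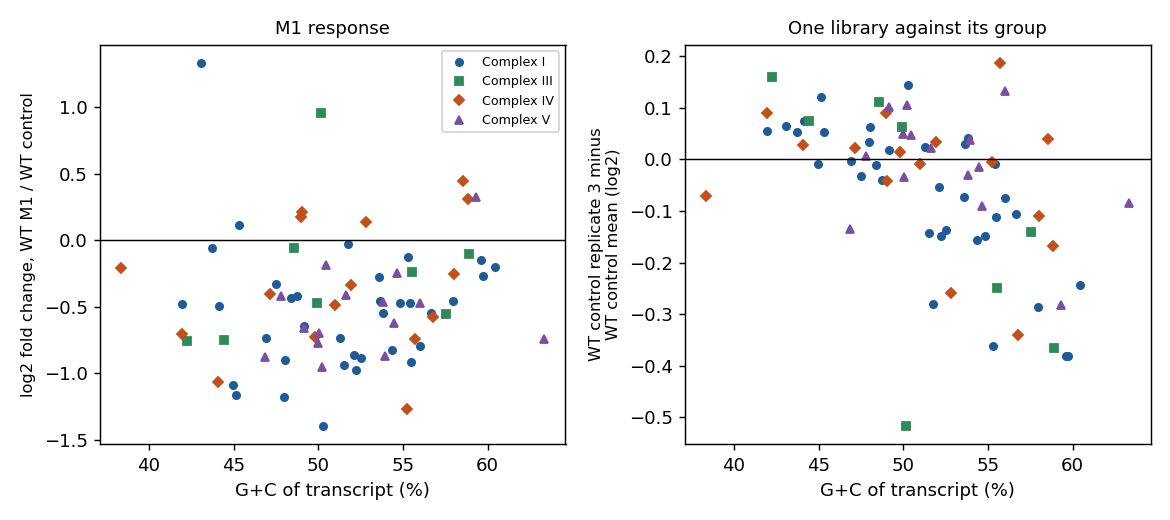
GC share of the transcript of 74 subunit genes against the log2 fold change of M1 over control in WT (left) and against the deviation of WT control replicate 3 from the WT control mean (right), coloured by complex. The points on the left show little relation (r = 0.09), and those on the right fall with rising GC share (r = -0.53).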

How the data were processed

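RNA was measured in 12 libraries of bone marrow-derived macrophages, grouped by genotype and LPS treatment as the labels give them. Per the study's methods, the authors made libraries with the TruSeq Stranded mRNA kit, trimmed the reads, used CLC Genomics Workbench to place them on mm10 and allowed a read several mapping positions. The deposited table holds TPM per gene, which keep no read numbers. Other deposited tables hold the authors' own fold changes and p-values and were not used. Whether counting used the strand is not given in the sources, so genes that overlap on opposite strands (such as Atp5j with Gabpa, or Atp5f1 with Wdr77) are less certain.

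From the TPM, log2(TPM + 1) was tested in R 4.3.3 with limma 3.58.1 (trend, 4 group means, 8 residual degrees of freedom) for genes reaching 1 TPM in 3 or more libraries, with Benjamini-Hochberg adjustment over all genes tested. There were 5 comparisons: the M1 response in each genotype (adjusted p under 0.05, fold over 1.5), M-BKO against WT in control and in M1 cultures, and the interaction of genotype with M1 (adjusted p under 0.05). The code was tested on simulated data. Tables and figures were made in Python 3.11.15 with pandas 2.3.3.

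Members, lists and tests were chosen with earlier results of these data known. Genes named were the catalytic core subunits, paralogs filling the same position, up to 4 called members per complex and direction of each M1 response by size, those called between genotypes, and up to 3 called genes per direction of each other list. 1 gene of this list is not reported here. Others are named to account for the rest of a complex or because their values stood out. Alternatives were the pseudocount (0.1, 5), the minimum level (none, 5 TPM), median-ratio scaling, Lyz2 left out of the total, a replicate block, only the groups compared, no fold threshold, and each library left out. Coordinates are those of the deposited table (mm10). Promoters are from RefSeq (GRCm38.p6), and GC share is from the longest coding transcript per symbol in GENCODE M21.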

Additional observations from a re-analysis of the deposited data

How the results depend on the processing

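The M1 counts depended most on the scaling and the fold threshold. Under median-ratio scaling 7 members were called higher and 10 lower in WT, beside 22.8% and 21.3% of all genes. In M-BKO the counts were 4 and 10, beside 22.4% and 22.1%. With no fold threshold these counts were 7 and 67, and 3 and 73, beside 22.4% and 63.6%, and 21.2% and 64.5%, of all genes. Leaving out single libraries gave 2 higher and 37 to 42 lower in WT, and 1 to 2 higher and 40 to 42 lower in M-BKO. In M-BKO against WT after M1, median-ratio scaling and leaving Lyz2 out of the total gave 0 higher, and no minimum level gave 1 lower. Single libraries left out gave 0 to 3 higher and 0 to 8 lower. The upper values came without WT control replicate 3, where 1266 and 527 of all 10822 genes were called higher and lower. Without LPS, leaving out single libraries gave 0 to 2 higher and 0 to 1 lower, the upper values without WT control replicate 1. The interaction gave 0 to 1 in each direction (1 higher without WT M1 replicate 3, 1 lower without WT M1 replicate 1). The replicate block gave 2 higher and 37 lower in WT, 1 and 42 in M-BKO, and 1 and 2 in M-BKO against WT after M1, where Ndufaf6 was lost (adjusted p = 0.059). It changed no other call of a gene named by rule. The labels give the groups no more than a shared number: of 18 pairs of libraries with the same replicate number, 5 had residuals correlated above 0.1, and 5 of 12 libraries lay closest to their own number.

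Under median-ratio scaling these log2 fold changes turned from below to above 0 in WT: Atp5b 0.050, Atp5e 0.22, Atp5g3 0.28, Atp5o 0.00046, Cox4i1 0.21, Cox7a2 0.13, Ndufs7 0.31 and Uqcrfs1 0.40. In M-BKO they were Atp5b 0.093, Atp5e 0.22, Atp5g3 0.40, Atp5o 0.034, Cox4i1 0.18, Cox7a2 0.11, Ndufab1 0.15, Ndufc1 0.085, Ndufs7 0.074 and Uqcrfs1 0.38. Since this scaling sets the median gene to 0, genes that fell less than the median gene come out above 0. Leaving out single libraries turned 4 genes whose change was not called or uncertain, with ranges of -0.62 to 0.78 for Ndufs5, -0.34 to 0.00038 for Ndufs7 and -0.10 to 0.34 for Cox6a2 in WT, and -0.032 to 0.067 for Atp5d in M-BKO. TPM give no depth, and with 3 cultures per group only differences that are large beside the spread between cultures could be detected.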
